A study of Rattus norvegicus with 4 samples.

Results

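The 5 genes described here, Ccl2, Ccl7, Ccl5, Ccl4 and Ccl20, encode CC chemokines, and all 5 symbols were found among the 17768 rows of the gene table by exact gene name. They were picked with the values of the libraries labelled lv_Mettl3 and lv_nc already known, so their differences between these groups are a description and carry no test. RNA was sequenced from 4 libraries of NRK-52E cells, a rat kidney epithelial line in long use that the labels give as proximal tubular. The 2 libraries titled lv_Mettl3 are named for a lentivirus (vector pLVX-IRES-Puro) with a murine Mettl3 cDNA, which encodes the catalytic subunit of the RNA m6A writer; per the labels a stable line was made and kept under puromycin in medium with 10% serum. The 2 libraries titled lv_nc are their comparison, and the labels do not spell out nc. The labels give the same puromycin and serum settings for all 4 libraries. All 4 libraries carry the treatment label untreated, and nothing in the labels says whether a line was a clone or a pool, or that replicates were grown apart, so each p-value reflects the variation among these libraries alone, and that variation could be technical.

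CC chemokines are small secreted proteins with a pair of adjacent cysteines near the amino end. They bind G protein-coupled receptors of the CCR family on leukocytes, and heparan sulfate on cell surfaces holds them in place so that cells can follow their gradient. Proximal tubule cells are known to secrete several of them when injured or exposed to inflammatory cytokines, and their transcription is known to respond to NF-kB, AP-1 and interferon regulatory factors.

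The rat promoters of Ccl7 and Ccl20, as given by RefSeq on build GRCr8, are shown because these 2 of the 5 genes matched an entry of the promoter table by symbol. Each is the 250 bases before the annotated start, 5′ to 3′ on the strand of the gene, with matches to the motifs searched in capitals. Ccl7 lies at chr10:67513845-67514094 (plus strand) and Ccl20 at chr9:91836909-91837158 (plus strand).
Ccl7: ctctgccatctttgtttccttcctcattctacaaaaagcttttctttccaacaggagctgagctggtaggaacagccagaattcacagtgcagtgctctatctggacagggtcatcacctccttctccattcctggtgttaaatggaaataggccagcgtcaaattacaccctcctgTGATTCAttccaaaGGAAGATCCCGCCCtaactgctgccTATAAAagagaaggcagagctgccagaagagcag
Ccl20: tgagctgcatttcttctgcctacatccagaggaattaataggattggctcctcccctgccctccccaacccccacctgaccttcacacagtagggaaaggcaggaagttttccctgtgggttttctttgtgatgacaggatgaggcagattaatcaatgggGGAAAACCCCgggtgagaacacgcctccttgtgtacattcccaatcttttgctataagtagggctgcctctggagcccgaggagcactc
Both windows held a match to the NF-kB consensus on the opposite strand, GGAAGATCCC from 59 to 50 bases before the start in Ccl7 and GGAAAACCCC from 89 to 80 bases before it in Ccl20. The Ccl7 window also held a match to TGANTCA, the pattern searched for AP-1 with any base at N. The match was TGATTCA, with T at that position, from 73 to 67 bases before the start. The same window held TATAAA from 34 to 29. A GC box (GGGCGG) on the opposite strand, from 51 to 46, overlapped its NF-kB match. Neither window held the interferon-stimulated response element, searched as GAAA, any 2 bases and GAAA, or TTGCNNAA for C/EBP, and all motifs were searched on both strands. Among 33469 windows of the same length, 6.33% held the NF-kB consensus, 6.34% TGANTCA, 12.9% TATAAA, 30.5% GGGCGG, 3.41% the interferon element and 9.22% TTGCNNAA. These matches describe letters in the windows and show no binding.

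Total gene reads per library were between 15068898 and 16622255. The rat Mettl3 gene had normalized read counts (gene reads divided by 1 size factor per library) of 757 and 700 in the libraries labelled lv_Mettl3 and 719 and 767 in those labelled lv_nc, for which the limma log2 fold change was -0.03 with an SE of 0.11 (adjusted p = 0.931), so the mRNA of the titled gene did not separate the groups. Assignment of reads from the murine cDNA to this gene was not tested. Directions below are those of the libraries labelled lv_Mettl3 relative to the libraries labelled lv_nc. The 2 libraries labelled lv_nc stood further apart than the 2 labelled lv_Mettl3: replicates differed with an SD of 0.287 on the log2 scale in lv_Mettl3 and 0.413 in lv_nc, over the 10051 genes that averaged 100 or more. Of 8 kidney epithelial markers with a row, Krt8 (28296 to 33065 in the 4 libraries) and Tjp1 (10903 to 12378) were abundant, while the other 6, among them Cdh1 and Pax8, had means under 50. Of 7 proximal tubule markers with a row, Ggt1 and Slc3a1 (59.6 to 82.7) were the highest. Ggt1 had 3294 and 3757 in the libraries labelled lv_Mettl3, against 2412 and 2530 in those labelled lv_nc, and carried most of the sum of the 7 markers, which was 3412 and 3920 in lv_Mettl3 against 2539 and 2662 in lv_nc. DESeq2 called Ggt1 higher (log2 fold change 0.51, adjusted p = 0.0345; limma adjusted p = 0.378), and that call was lost without either lv_Mettl3 library; its part in the chemokine values was not tested. The endocytic receptor genes Lrp2 and Cubn did not exceed 1.95 and 20.3 in any library. The data therefore show epithelial keratin and junction transcripts but little of the defining proximal tubule transcripts.

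All 5 CC chemokine genes were higher in both libraries labelled lv_Mettl3 than in either labelled lv_nc, with ratios of group means from 2.74 for Ccl5 to 7.85 for Ccl4. Among all 16391 genes tested, 23.5% had both libraries labelled lv_Mettl3 above both labelled lv_nc, and 5.69% had a limma log2 fold change of at least 1. Limma on log2(value + 1), with Benjamini-Hochberg adjustment at 0.05, called 0 of the 5 (5 had an unadjusted p under 0.05) where 0.0183% of all genes were called higher. DESeq2 on the recovered reads called 3 of the 5 higher (Ccl2, Ccl5 and Ccl4) where the share of all genes was 1.45%, and gave no adjusted p for Ccl20. The edgeR test called 1, Ccl2, where the share was 0.0305%. Since the genes were chosen on this contrast, these counts say how they were found and are not evidence for them. In bulk RNA, more cells expressing a gene and more of its RNA per cell cannot be told apart.

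**Figure D1:**
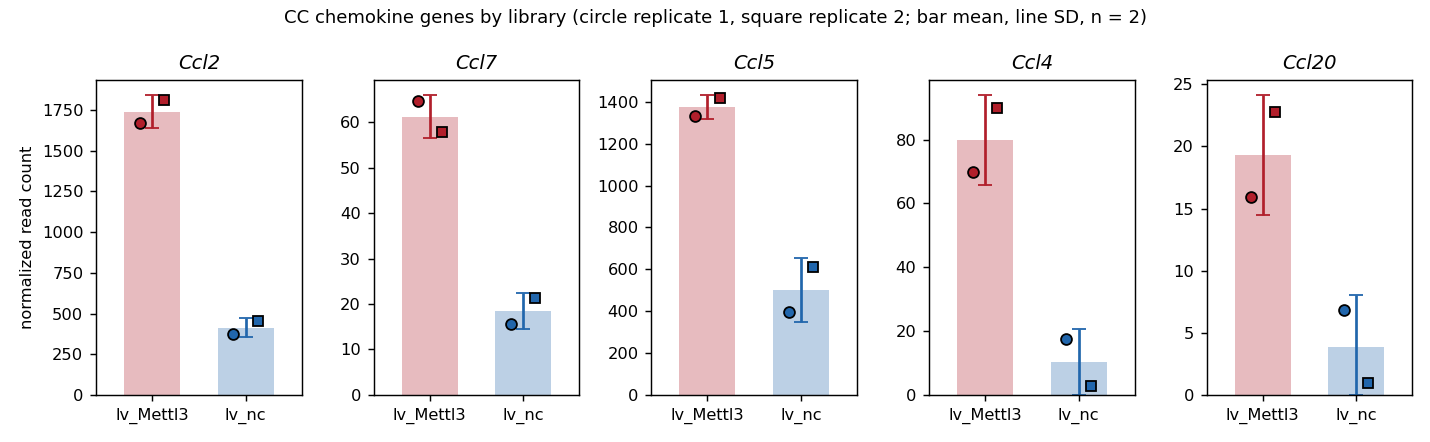
Normalized read counts of the 5 genes, each on its own linear axis; circles are replicate 1, squares replicate 2, bars the mean and lines the SD (n = 2 libraries a group; SD lines of Ccl4 and Ccl20 in lv_nc end at 0). Both lv_Mettl3 libraries lie above both lv_nc libraries in every panel, from 1668 and 1814 in lv_Mettl3 against 372 and 453 in lv_nc for Ccl2 down to 15.9 and 22.7 in lv_Mettl3 against 6.84 and 0.923 in lv_nc for Ccl20.

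Ccl2 and Ccl7 encode monocyte attractants that act through the receptor Ccr2, and Ccl7 also binds other CCR receptors. Ccl2 (ENSRNOG00000007159, chromosome 10, 69412017 to 69413870 on the plus strand in the authors' coordinates, whose genome build the table does not name) showed 1668 and 1814 normalized counts in the libraries labelled lv_Mettl3, against 372 and 453 in the libraries labelled lv_nc. The groups were far apart compared with either replicate pair. The means were 1741 ± 103 in lv_Mettl3 and 413 ± 57.3 in lv_nc (SD, n = 2 each), and the limma log2 fold change was 2.08 (SE 0.14). Single library pairs gave 3.68-fold to 4.87-fold, and the pooled reads, 3328 in lv_Mettl3 against 872 in lv_nc, gave a ratio of 4.21 with an exact 95% interval of 3.90 to 4.54 that covers counting error only.

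Ccl7 (ENSRNOG00000000239, chromosome 10, 69423086 to 69424979, plus strand) lies 9215 bases beyond Ccl2 and was far less abundant. It had 64.7 and 57.9 in the libraries labelled lv_Mettl3, against 15.6 and 21.2 in the libraries labelled lv_nc. The groups did not overlap, and the order of the replicates within lv_Mettl3 was the reverse of that of Ccl2. The means were 61.3 ± 4.81 in lv_Mettl3 and 18.4 ± 3.96 in lv_nc, with a limma log2 fold change of 1.69 (SE 0.34) and single pairs from 2.73-fold to 4.14-fold. These values rest on 117 reads in lv_Mettl3 and 39 in lv_nc, a ratio of 3.31 with a counting interval of 2.28 to 4.88 that holds the value of Ccl2.

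Ccl5 and Ccl4 encode attractants of T cells and monocytes, and Ccl5 acts in part through the receptors Ccr1 and Ccr3. Ccl5 (ENSRNOG00000010906, chromosome 10, 70739800 to 70744315, minus strand) had 1334 and 1417 in the libraries labelled lv_Mettl3, against 395 and 610 in the libraries labelled lv_nc. The lv_Mettl3 pair was close together, and lv_nc replicate 2 was the higher of its pair by a ratio of 1.55, with a counting interval of 1.36 to 1.76. The means were 1375 ± 58.7 in lv_Mettl3 and 502 ± 152 in lv_nc, the limma log2 fold change was 1.48 (SE 0.22), and single pairs spanned 2.19-fold to 3.59-fold.

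Ccl4 (ENSRNOG00000011406, chromosome 10, 70884531 to 70886355, plus strand) lies 140215 bases from Ccl5 and had the highest limma log2 fold change of the 5 with all 4 libraries. It had 70.0 and 89.9 in the libraries labelled lv_Mettl3, against 17.6 and 2.77 in the libraries labelled lv_nc. The groups did not overlap, but the lv_nc pair rested on 18 and 3 reads and stood apart, replicate 2 being 0.158 times replicate 1 (counting interval 0.0297 to 0.540). The means were 79.9 ± 14.1 in lv_Mettl3 and 10.2 ± 10.5 in lv_nc, with a limma log2 fold change of 3.26 (SE 0.81). That value was 2.11 without lv_nc replicate 2, below the 2.22 of Ccl2 in that fit, and 4.41 without lv_nc replicate 1, and single pairs spanned 3.98-fold to 32.5-fold. The DESeq2 call of Ccl4 was lost without lv_nc replicate 2 and without either lv_Mettl3 library, while Ccl2 and Ccl5 were called in DESeq2 whichever library was left out.

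Ccl20 encodes the ligand of Ccr6, the receptor of Th17 cells, some B cells and immature dendritic cells. The gene (ENSRNOG00000015992, chromosome 9, 88918433 to 88921001, plus strand) had 15.9 and 22.7 in the libraries labelled lv_Mettl3, against 6.84 and 0.923 in the libraries labelled lv_nc. This was 15 and 22 reads in lv_Mettl3 against 7 reads and 1 read in lv_nc, so the groups did not overlap but lv_nc replicate 2 rests on a single read. The means were 19.3 ± 4.83 in lv_Mettl3 and 3.88 ± 4.18 in lv_nc, with a limma log2 fold change of 2.37 (SE 0.79). The pooled ratio of 37 reads in lv_Mettl3 to 8 in lv_nc was 5.10 with a counting interval of 2.34 to 12.7, and the limma value was 1.35 without lv_nc replicate 2 and 3.38 without lv_nc replicate 1.

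**Figure D2:**
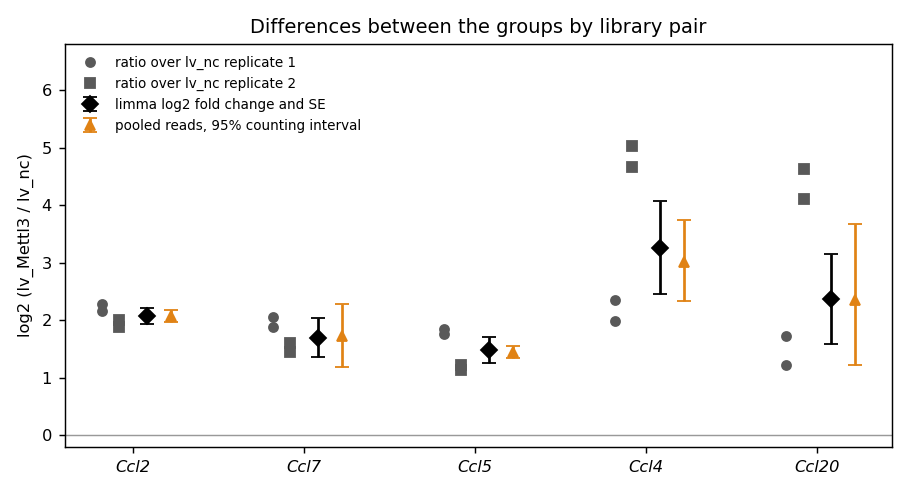
Log2 of lv_Mettl3 over lv_nc for each gene: gray points are the 4 library pairs, split by the lv_nc library in the denominator, black diamonds the limma log2 fold change with its SE, and orange triangles the ratio of pooled reads with its 95% counting interval. Pairs of Ccl2 lie between 1.88 and 2.28, while those of Ccl4 and Ccl20 split by lv_nc library and reach 5.02 and 4.62.

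The authors' deposited log2 fold changes come from the same 4 libraries. They differed from the DESeq2 values computed here by at most 7.82e-05 over all genes, so their order of sizes is no second source. In the authors' deposited table the log2 fold changes were 2.98 for Ccl4, 2.33 for Ccl20, 2.08 for Ccl2, 1.73 for Ccl7 and 1.45 for Ccl5. The authors' shorter deposited table of 167 genes held 3 of the 5, Ccl2, Ccl4 and Ccl5.

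On a scale of normalized counts per kb of gene length, which allows genes to be compared with each other, Ccl5 and Ccl2 made up nearly all of the CC chemokine transcripts. In the libraries labelled lv_Mettl3 the order was Ccl5 (2523 ± 108 per kb), Ccl2 (2085 ± 123), Ccl4 (127 ± 22.3), Ccl7 (72.1 ± 5.66) and Ccl20 (24.5 ± 6.14), and no neighbours in this order overlapped. In the libraries labelled lv_nc it was Ccl5 (922 ± 280), Ccl2 (494 ± 68.6), Ccl7 (21.7 ± 4.66), Ccl4 (16.1 ± 16.6) and Ccl20 (4.93 ± 5.31), where the 2 replicates of Ccl7 lay within the span of those of Ccl4, and Ccl4 overlapped Ccl20. The share of Ccl2 beside that of Ccl5 was higher in the libraries labelled lv_Mettl3. Ccl2 was 42.9% and 43.3% of the per-kb sum of the 5 genes in those libraries, against 36.4% and 32.1% in the libraries labelled lv_nc, and Ccl5 was 52.6% and 51.9% in lv_Mettl3, against 59.1% and 66.1% in lv_nc. The sum itself was 4652 and 5011 per kb in lv_Mettl3, against 1225 and 1693 per kb in lv_nc.

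**Figure D3:**
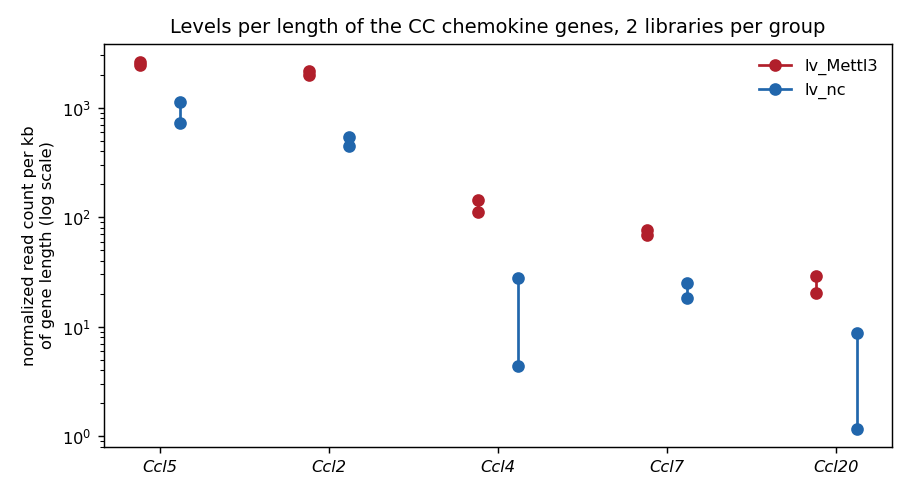
Normalized read counts per kb of gene length on a log axis; points are the 2 libraries of a group, joined by a line, with lv_Mettl3 left of lv_nc for each gene. Ccl5 and Ccl2 lie at or above 445.8 per kb in every library, and the other 3 genes at or below 142.5 per kb.

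The genes differed in how they varied within lv_nc. Ccl2, Ccl7 and Ccl5 were higher in lv_nc replicate 2 than in replicate 1, by ratios of 1.22, 1.36 and 1.55, whereas Ccl4 and Ccl20 were lower there, at 0.158 and 0.135 times replicate 1. The counting interval of the ratio excluded equality for Ccl2 (lower bound 1.06), Ccl5 and Ccl4, and included it for Ccl7 (0.687 to 2.75) and Ccl20 (0.00300 to 1.05). Within lv_Mettl3 the corresponding ratios of replicate 2 over replicate 1 ran from 0.895 for Ccl7 to 1.43 for Ccl20. Taking the root mean square difference in log2(value + 1) after subtracting the mean of each gene over the 4 libraries, the closest pair was Ccl7 and Ccl5 (0.154), followed by Ccl2 and Ccl7 (0.222), Ccl2 and Ccl5 (0.322) and Ccl4 and Ccl20 (0.461). Ccl5 and Ccl4, whose genes are 140215 bases apart, were the most distant pair (1.37). The Ccl4 value in lv_nc replicate 2 rests on 3 reads.

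**Figure D4:**
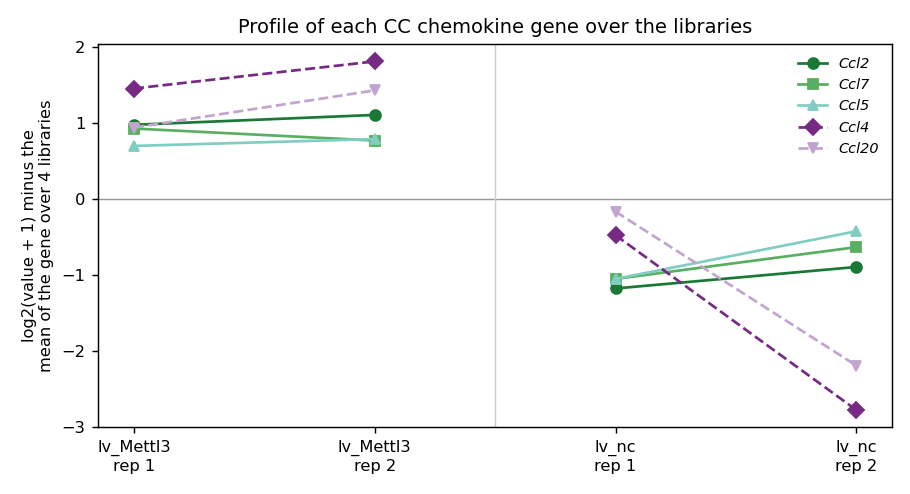
Log2(value + 1) of each gene minus its own mean over the 4 libraries; lines join the 2 replicates of a group and carry no order in time. Ccl2, Ccl7 and Ccl5 (solid) are higher in lv_nc replicate 2 than in replicate 1, while Ccl4 and Ccl20 (dashed) are lower there, and all 5 are above 0 in both lv_Mettl3 libraries.

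The same measure was used to name the 3 genes nearest to each chemokine among genes with a mean of at least 50. Nearest to Ccl2 was Rtp3 (0.0847), with 1077 and 1061 in the libraries labelled lv_Mettl3 and 213 and 249 in those labelled lv_nc, then Cxcl10 (0.138) and Herc6 (0.145). Nearest to Ccl7 was Gbp5 (0.0386), with 422 and 371 in lv_Mettl3 against 109 and 150 in lv_nc, then Kcnt1 (0.0847) and Cx3cl1 (0.111). For Ccl5 they were Oasl (0.0524), with 3442 and 3724 in lv_Mettl3 against 1123 and 1652 in lv_nc, then Ifit1 (0.0856) and Cx3cl1 (0.0908). Ccl4 had no gene as close, the nearest being Tnip3 (0.448), with 633 and 692 in lv_Mettl3 against 107 and 50.8 in lv_nc, then Miip (0.545) and Ankrd1 (0.563). Ccl20 was nearest to Ankrd1 (0.215), with 969 and 926 in lv_Mettl3 against 418 and 101 in lv_nc, then Il24 (0.315) and Fgd1 (0.386). Each distance rests on 4 libraries, and the reads of Ccl4 and Ccl20 are few.

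Receptor genes were mostly low in these cells, with 4 of the 5 that had a row below 50 normalized counts in every library. Of 17 genes listed for receptors of CC ligands, atypical chemokine receptors and the CXC receptor Cxcr3, 4 were tested; limma called 0 (1 had an unadjusted p under 0.05), edgeR called 0 and DESeq2 called 1, lower, where 1.07% of all genes were called lower. That gene was Ackr3, an atypical receptor that takes up Cxcl11 and Cxcl12 rather than CC ligands. Ackr3 had 973 and 846 in the libraries labelled lv_Mettl3, against 1475 and 2137 in the libraries labelled lv_nc. It was lower in both, with a DESeq2 log2 fold change of -0.99 (SE 0.21, adjusted p = 0.000256; limma adjusted p = 0.378). The DESeq2 adjusted p of Ackr3 was 0.120 without lv_Mettl3 replicate 1 and 0.567 without lv_Mettl3 replicate 2. Cxcr3, a receptor of T cells for CXC ligands, had 29.7 and 28.9 in lv_Mettl3 against 17.6 and 15.7 in lv_nc, where the groups did not overlap and no tool called it. Ccr10, the Ccl27 and Ccl28 receptor, had 6.36 and 4.13 in lv_Mettl3 against 1.95 and 6.46 in lv_nc, and Ccr4, a chemokine receptor of T cells, was listed at 0 in both libraries labelled lv_Mettl3 and at 1.95 and 0 in those labelled lv_nc. Of the ligands' own receptors, Ccr1, Ccr2, Ccr3 and Ccr6 were not analysed here.

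Of 15 other CC ligand genes 3 had a row, and each was near the level of single reads. Ccl27 had 2.12 and 8.27 in the libraries labelled lv_Mettl3, against 4.88 and 7.39 in the libraries labelled lv_nc. Ccl19 had 1.06 and 0 in lv_Mettl3 against 1.95 and 0 in lv_nc, and Ccl22 had 1.06 and 0 in lv_Mettl3 against 0.977 and 0 in lv_nc. Limma called 0 of the 2 that were tested, with 0 at an unadjusted p under 0.05, and edgeR and DESeq2 also called 0, so a difference was not detectable at this depth. Among the CC ligands with a row, transcripts above 50 normalized counts in any library were those of Ccl2, Ccl5, Ccl4 and Ccl7.

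Proteoglycans that hold chemokines and enzymes that trim them included abundant transcripts such as Mmp14, and 1 was called. Of 25 genes 19 were tested; limma called 0, with 7 at an unadjusted p under 0.05 where 10.5% of all genes tested had one, and edgeR called 0. DESeq2, which gave an adjusted p for 17, called 1, lower, where 1.07% of all genes were called lower. This was Mmp14, a membrane-bound metalloproteinase, with 3663 and 4090 in the libraries labelled lv_Mettl3, against 4991 and 6176 in the libraries labelled lv_nc (DESeq2 log2 fold change -0.53, adjusted p = 0.0441; limma adjusted p = 0.408). The call of Mmp14 was lost whenever a library other than lv_nc replicate 1 was left out, with DESeq2 adjusted p of 0.127 without lv_nc replicate 2 and 1 without either lv_Mettl3 library. The median limma log2 fold change of the list was -0.19, beside 0.01 over all genes tested. Of the 19 tested, 6 had both lv_Mettl3 libraries above both lv_nc libraries and 9 had both below, beside 23.5% and 21.5% of all genes. Among those higher was Dpp4, with 22.3 and 24.8 in the libraries labelled lv_Mettl3 against 2.93 and 9.23 in those labelled lv_nc. Its limma log2 fold change was 1.95 (SE 0.60), and no tool called it. Factors that bind AU-rich elements and destabilize or protect cytokine mRNAs showed no call: of 15 tested, limma, edgeR and DESeq2 each called 0, none had an unadjusted limma p under 0.05, and the median log2 fold change was 0.09, with a range of -0.41 to 0.33. Among the most abundant were Pum2, with 5107 and 4523 in the libraries labelled lv_Mettl3 against 5039 and 4224 in those labelled lv_nc, and Hnrnpd, with 3259 and 3295 in lv_Mettl3 against 3460 and 3118 in lv_nc.

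Of 40 genes for cytokine receptors, adaptors and transcription factors that can induce CC chemokine genes, 35 were tested. Limma called 0, with 7 at an unadjusted p under 0.05 where 10.5% of all genes tested had one, and edgeR called 0. DESeq2, which gave an adjusted p for 32, called 3, all higher, where 1.45% of all genes were called higher: Nfkbiz, Jun and Ddx58. Nfkbiz, a nuclear cofactor of NF-kB, had 610 and 614 in the libraries labelled lv_Mettl3, against 374 and 242 in the libraries labelled lv_nc (DESeq2 log2 fold change 0.99, adjusted p = 0.00678). Jun, a subunit of AP-1, had 1981 and 2256 in lv_Mettl3 against 1438 and 1268 in lv_nc (0.65, DESeq2 adjusted p = 0.00817), and Ddx58, the viral RNA sensor RIG-I, had 1119 and 1158 in lv_Mettl3 against 575 and 813 in lv_nc (0.71, DESeq2 adjusted p = 0.0291). Limma adjusted p-values of these 3 were 0.386, 0.372 and 0.403.

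None of the 3 DESeq2 calls held without either lv_Mettl3 library, where the adjusted p was at least 0.752. Jun kept its call without lv_nc replicate 1 or replicate 2, Nfkbiz lost it without lv_nc replicate 2 (DESeq2 adjusted p = 0.141) and Ddx58 lost it without lv_nc replicate 1 (DESeq2 adjusted p = 0.0576). The NF-kB subunit genes Rela, with 1525 and 1649 in lv_Mettl3 against 1426 and 1422 in lv_nc, and Nfkb1, with 1203 and 1300 in lv_Mettl3 against 1247 and 1360 in lv_nc, were not called by any of the 3 tests. Nor were the subunit genes Nfkb2, Relb and Rel, with limma log2 fold changes of 0.35, 0.49 and 0.28. Rela, Nfkb2, Relb and Rel were higher in both lv_Mettl3 libraries than in either lv_nc library, and Nfkb1 overlapped. The list had a median limma log2 fold change of 0.10, beside 0.01 over all genes tested. Of its 35 genes, 15 were separated upward, beside 23.5% of all genes, and 2 downward, beside 21.5%. Those 2 were Irf3, with 681 and 713 in lv_Mettl3 against 725 and 754 in lv_nc, and Irf7. Irf7 had 1780 and 2011 in lv_Mettl3 against 2253 and 3787 in lv_nc (DESeq2 log2 fold change -0.67, DESeq2 adjusted p = 0.0771). Neither was called by any of the 3 tests.

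**Figure D5:**
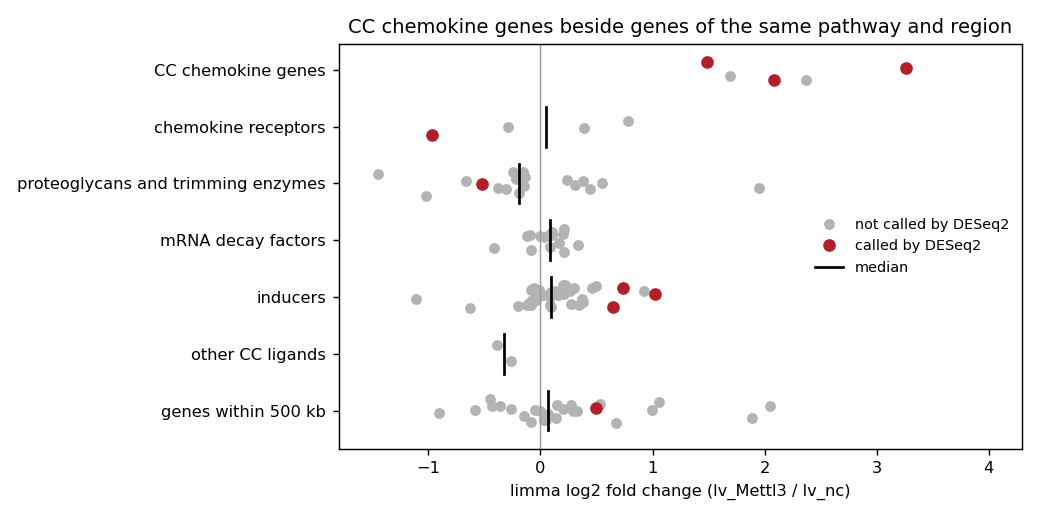
Limma log2 fold changes of the 5 genes, of each pathway list and of the genes within 500000 bases; each point is a gene, red points were called by DESeq2, and black lines are list medians (none is drawn for the 5 genes, which were chosen by value). The lists centre near 0, between -0.32 and 0.10, with red points at -0.97 for Ackr3 and 1.02 for Nfkbiz.

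The genes around the chemokines in the table had a median difference near 0. Within 500000 bases of the 5 genes lay 29 others, of which 27 were tested and none overlapped a chemokine gene. Ccl2 and Ccl7 had only each other in that window, Ccl5 had 21, Ccl4 had 15 and Ccl20 had 4. The median limma log2 fold change of the neighbours was 0.06, and limma called 0. Of the 27 tested, 8 had both lv_Mettl3 libraries above both lv_nc libraries and 3 had both below, beside 23.5% and 21.5% of all genes. DESeq2, which gave an adjusted p for 17, called 1 higher, where 1.45% of all genes were called higher. That gene was Slfn4, a Schlafen family gene, with 3963 and 3531 in the libraries labelled lv_Mettl3, against 2675 and 2616 in the libraries labelled lv_nc. Its log2 fold change was 0.50 (DESeq2 adjusted p = 0.0341, limma adjusted p = 0.378). The DESeq2 adjusted p of Slfn4 was 1 without either lv_Mettl3 library. Heatr9, the nearest neighbour of Ccl5 at 4058 bases, had 19.1 and 32.0 in lv_Mettl3 against 5.86 and 21.2 in lv_nc, so its groups overlapped, and Ap2b1, a clathrin adaptor gene, had 1759 and 1832 in lv_Mettl3 against 1758 and 1730 in lv_nc.

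Leukocytes are the other usual source of these transcripts, and the values of their markers stand beside the results here. Of 18 leukocyte markers 7 had a row, and their sum was 2018 and 2155 in the libraries labelled lv_Mettl3, against 1814 and 2182 in the libraries labelled lv_nc, so the groups overlapped. Nearly all of it was Cd14, which epithelial cells can also express, at 1776 to 2128 in the 4 libraries. The macrophage gene Csf1r had 3.18 and 11.4 in lv_Mettl3 against 0.977 and 1.85 in lv_nc, and the T cell gene Cd3e had 2.12 and 4.13 in lv_Mettl3 against 0.977 and 1.85 in lv_nc. Both were higher in lv_Mettl3 without overlap, at no more than 11 reads in any library. For Cd3e, lv_Mettl3 replicate 1 and lv_nc replicate 2 held 2 reads each, so only the size factors kept the groups apart. Of the 7 markers, Csf1r and Cd3e alone did not overlap, beside 23.5% of all genes separated upward and 21.5% downward. The macrophage gene Adgre1 overlapped between the groups and did not exceed 7.23. Limma log2 fold changes were negative for Cd68 (-0.19), Coro1a (-0.30) and Fcgr3a (-0.05), whose groups overlapped, and positive for the other markers. Limma called none of the 7 markers, and DESeq2 gave an adjusted p for 2, Cd14 and Cd68, and called neither. Fibroblast and smooth muscle markers did differ between the groups: the sum of the 8 with a row was 5458 and 4969 in lv_Mettl3, against 13700 and 17960 in lv_nc, and Col1a1 and Col3a1 carried most of that difference. DESeq2 called 4 of the 8 lower, Col1a1, Col1a2, Col3a1 and Acta2, where 1.07% of all genes were called lower, and limma called 0. Col3a1 alone kept its DESeq2 call whichever library was left out. The groups overlapped for Tagln, Myh11 and Des. Pdgfra, at 1 to 3 reads a library, was higher in lv_Mettl3 and not called. Its lv_Mettl3 replicate 1 and both lv_nc libraries held 1 read each, so only the size factors kept those apart. The part of these markers in the chemokine values was not tested. The 5 endothelial markers with a row summed to 119 and 160 in lv_Mettl3, against 135 and 161 in lv_nc.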

How the data were processed

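The submitters' processing notes name CASAVA 1.4 and HISAT2. No counter, genome build, annotation or strand setting is given in the sources used here. The authors deposited 2 tables, 1 of all genes and 1 of 167, whose library columns hold a signal, gene read counts divided by 1 size factor per library (0.943 and 0.968 in lv_Mettl3 replicates 1 and 2, 1.02 and 1.08 in lv_nc). Within 0.001 reads, 100% of values were whole multiples of the smallest positive value of the library, so whole reads were recovered. The deposited log2 fold changes, p-values and gene lengths are the authors', per the file headers. The 945 unnamed rows (1.3% of reads) stayed in library sizes and tests.

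Groups and replicate numbers came from the titles. Limma 3.58.1 (trend) was fitted on log2(value + 1) to genes that reached a value of 1 in 2 or more libraries. Its p-values were adjusted by Benjamini-Hochberg over all genes tested. Adding 1 shrinks the log2 fold change of low genes beside a smaller added value (Ccl20 2.37, against 2.84 with 0.1 added). The limma values of Ccl4 and Ccl20 (3.26 and 2.37) were still above those of DESeq2 (2.98 and 2.33). DESeq2 1.42.0 and edgeR 4.0.16 on the recovered reads were alternatives; DESeq2 called 318 genes and edgeR 5, against 3 by limma. A gene is called only where it passed the test named. All 5 chemokine genes passed the filter; Ccl20 was below 1 in lv_nc replicate 2. Counting intervals are exact 95% conditional binomial intervals, and reads without molecular identifiers are not independent molecules. Named genes were the 5 chemokines, every called gene of each list or else up to 3 of the most abundant, and the 3 nearest profiles. Ccr10, Ccr4, Cxcr3, Rela, Rel, Relb, Nfkb1, Nfkb2, Irf3, Irf7, Dpp4, Heatr9, Ap2b1 and further markers were added after their values were seen. A further abundant list gene is not reported here. The chemokines and lists were chosen with earlier results of these data known. Scripts were tested on simulated counts. The software was R 4.3.3, Python 3.11.15 and matplotlib 3.10.9.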

Additional observations from a re-analysis of the deposited data

How the results depend on the processing

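All 5 chemokine genes kept a higher value in lv_Mettl3 under other scalings, pseudocounts and tools, no filter, robust empirical Bayes, the replicate block and leaving out a library. With at least 1 CPM in all 4 libraries Ccl2 and Ccl5 were fitted, and did too, while Ccl4, Ccl7 and Ccl20 did not pass that filter. With a pseudocount of 10 the log2 fold change was 1.33 for Ccl7 and 1.10 for Ccl20. Without 1 library, in limma or DESeq2, it ranged from 1.94 to 2.22 for Ccl2, 1.48 to 1.97 for Ccl7, 1.17 to 1.80 for Ccl5, 2.11 to 4.85 for Ccl4 and 1.35 to 4.38 for Ccl20; a lone library was then assumed to vary like the other group. The number of the 5 called was 0 in the limma fit, 1 (Ccl2) with at least 1 CPM in all 4 libraries, robust empirical Bayes, edgeR, limma-voom or the replicate block, and 3 with DESeq2; without 1 library it ranged from 1 to 4 in limma, and in DESeq2 was 3 without lv_nc replicate 1 and 2 without any other. Over the whole table limma called 3 genes, 0 with a pseudocount of 0.1, 5 with at least 1 CPM in all 4 libraries, 24 with robust empirical Bayes, 5 with edgeR or limma-voom and 318 with DESeq2, and without 1 library from 28 to 1431, highest without lv_nc replicate 1. The DESeq2 count was 56 without lv_Mettl3 replicate 1, 61 without lv_Mettl3 replicate 2, 1547 without lv_nc replicate 1 and 217 without lv_nc replicate 2. The cause was not tested. Replicate numbers are only titles, so they do not establish pairs; deviations of same-numbered libraries correlated at 0.325 over 10051 genes, and with the replicate block limma called 3 genes. Depth limits Ccl4 and Ccl20, which rest on 21 and 8 reads in lv_nc.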
